A study of Drosophila melanogaster with 23 samples.

Results

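The 10 genes described here encode factors that work on elongating RNA polymerase II. They are spt4 and Spt5, Spt6, the FACT genes dre4 and Ssrp, the PAF1 complex genes atms, Ctr9 and hyx with Rtf1, and the kinase gene Cdk9. They were taken by FlyBase symbol, and all 10 were found among the 17606 genes of the count table. All 10 also passed the filter on low counts, which kept 14365 genes. Transcript levels were followed across the 6 genotypes of the study, which examines how the H3K36 methyltransferase Set2 and lysine 36 of histone H3 act in Drosophila melanogaster.

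After initiation, RNA polymerase II pauses near the start of many genes, held by DSIF (the Spt4 and Spt5 proteins) together with NELF. The P-TEFb kinase, made of Cdk9 and Cyclin T, phosphorylates DSIF, NELF and the polymerase tail and releases the pause. The PAF1 complex, Spt6 and FACT then travel with the polymerase. Spt6 and FACT are histone chaperones that take nucleosomes apart ahead of it and restore them behind it, and Set2 binds the phosphorylated tail and methylates H3K36 along the gene body. In budding yeast, Spt6 is needed for normal H3K36 methylation by Set2, and FACT also serves DNA replication.

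Whole first-instar (L1) larvae of both sexes were pooled, 25 to 30 per sample, from crosses kept at 25 °C, and total RNA was sequenced. The genotype labels were yw (3 libraries), Set21 (4 libraries, here the Set2 mutant), H3.3CtrlH3.2HWT (4, the histone control), H3.3CtrlH4K16R (4, H4K16R), H3.3K36RH3.2HWT (4, H3.3K36R) and H3.3K36RH3.2K36R (4, combined H3K36R, in which K36 is changed in both the replication-coupled H3.2 and the replacement variant H3.3). H4K16R changes a lysine of another histone, and shares with the histone control the H3.3 background labelled control. The sources used here do not give how the histone transgenes were built, whether endogenous histone genes were still present, which crosses gave the larvae, or whether maternal product remained. The reference genotype was yw for the Set2 mutant and the histone control for the histone mutants. In pooled whole larvae, fewer cells of a type and less RNA per cell cannot be told apart.

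Library totals ran from 111138070 to 157973821 counts, and counts of the 10 genes ran from 731 to 39074. Set2 transcript lay between 4.97 and 7.69 CPM (counts relative to the TMM-scaled library size) in the Set2 mutant and between 70.4 and 82.4 CPM in yw. Levels of His3.3A, 1 of the H3.3 genes, averaged 63.8 ± 4.73 CPM in yw (SD, n = 3), 122 ± 7.03 in the Set2 mutant and 34.6 ± 5.06 in the histone control (both n = 4). The first principal component of the within-group residuals of the 4 histone genotypes held 29.4% of their variance. On this component histone control replicate 3, H4K16R replicate 3, combined H3K36R replicate 3 and H3.3K36R replicate 1 stood apart from their groups. Set2 mutant libraries scored 54.9 to 71.7 on it and yw libraries -11.8 to -5.63. The summed level of the 3 neuronal markers was 302 to 548 CPM in the Set2 mutant against 725 to 795 in yw, and 883 to 1016 in combined H3K36R against 678 to 812 in the histone control. In the Set2 mutant all 3 were called lower. In combined H3K36R only nSyb was called (log2 fold change 0.55, edgeR adjusted p = 0.00129), and elav (0.29) and Syt1 (0.07) were not. The 3 fat body markers summed to 1989 to 3120 CPM in the Set2 mutant against 4687 to 8753 in yw, and to 1718 to 2192 in combined H3K36R against 3231 to 5413 in the control, with Lsp2 near 0 in every group. The 3 midgut markers summed to 1143 to 1516 CPM in combined H3K36R against 1814 to 2363 in the control. The 3 cuticle markers summed to 5.66 to 9.52 CPM in the Set2 mutant against 18.3 to 22.3 in yw, and to 15.9 to 20.04 in combined H3K36R against 34.3 to 44.5 in the control. Of these only Lcp3 was called in the Set2 mutant (log2 fold change -4.68, edgeR adjusted p = 4.27e-07). Cpr65Av was at 0.07 and Tb at 5.24 there, neither of them called. In combined H3K36R Lcp3 (-1.14) and Cpr65Av (-0.61) were called lower, and Tb was not called (0.98). The 3 hemocyte markers summed to 344 to 384 CPM in H3.3K36R and 281 to 335 in combined H3K36R against 254 to 280 in the control. They did not move together in combined H3K36R, where Hml was called higher (log2 fold change 0.45, edgeR adjusted p = 0.00115). Pxn was called lower there (-0.97, adjusted p = 1.47e-05) and NimC1 was not called. In H3.3K36R only Hml was called (0.52, adjusted p = 0.00568). The 2 tracheal markers summed to 523 to 578 CPM in combined H3K36R against 634 to 878 in the control, without overlap. The 3 muscle markers summed to 13081 to 16434 CPM in combined H3K36R against 16136 to 22267 in the control, with overlap. Act57B (-0.73) and up (-0.31) were called lower there, and Mhc (-0.37) was not called. The 2 germline markers summed to 2.27 to 2.69 CPM in H3.3K36R against 3.39 to 4.39 in the control. Of these vas was called lower (-0.70) and osk was not called. Testis markers were at or near 0 and none of the 3 passed the filter, while egg and ovary markers summed to at most 17.2 CPM. The roX RNAs, which are made in males, summed to 1565 to 2088 CPM in combined H3K36R against 1190 to 1661 in the histone control, and in that comparison roX1 and roX2 had log2 fold changes of opposite sign, 0.35 and -0.42, neither of them called. They summed to 711 to 933 CPM in H3.3K36R, where both were lower than in the histone control (-0.77 and -0.85, adjusted p = 0.00568 and 0.0104), and to 681 to 841 in the Set2 mutant against 890 to 1118 in yw. The part of these tissue, sex and library differences in the results below was not tested.

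In the Set2 mutant, 7 of the 10 genes were higher than in yw and none was lower, led by spt4 and Ssrp at 1.80-fold and 1.73-fold. The call was made at an adjusted p below 0.05 in edgeR's quasi-likelihood test, and 44.5% of all tested genes were called by the same rule, 23.4% higher and 21.1% lower. For 6 of the 10 no library of the mutant overlapped a yw library, which held for 46% of all genes. In combined H3K36R larvae the same pair, spt4 and Ssrp, was lower than in the histone control, at 1.61-fold and 1.58-fold, and Rtf1 was higher, with 22.8% of all tested genes lower and 16.4% higher. Thus 3 of 10 were called against 39.2% of all genes, a share no larger than the background. None of the 10 was called in H3.3K36R or in H4K16R against the histone control, where 1.96% (0.947% higher, 1.02% lower) and 1.31% (0.278% higher, 1.03% lower) of all genes were called. In H4K16R none of the 10 was free of overlap with the control, against 8.38% of all genes. At an unadjusted p under 0.05 there were 4 in H3.3K36R and 2 in H4K16R. The share of all genes at that unadjusted p is not given here, so these counts have no background. DESeq2 called 0 of the 10 in both, against 721 of all genes in H3.3K36R and 647 in H4K16R. The median log2 fold change of the 10 genes was 0.45 in the Set2 mutant, where that of all tested genes was 0.02. It was 0.07 against -0.02 in combined H3K36R, 0.22 against 0.03 in H3.3K36R and 0.15 against 0.05 in H4K16R. The last 3 comparisons share the histone control libraries, so these values are not independent.

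**Figure D1:**
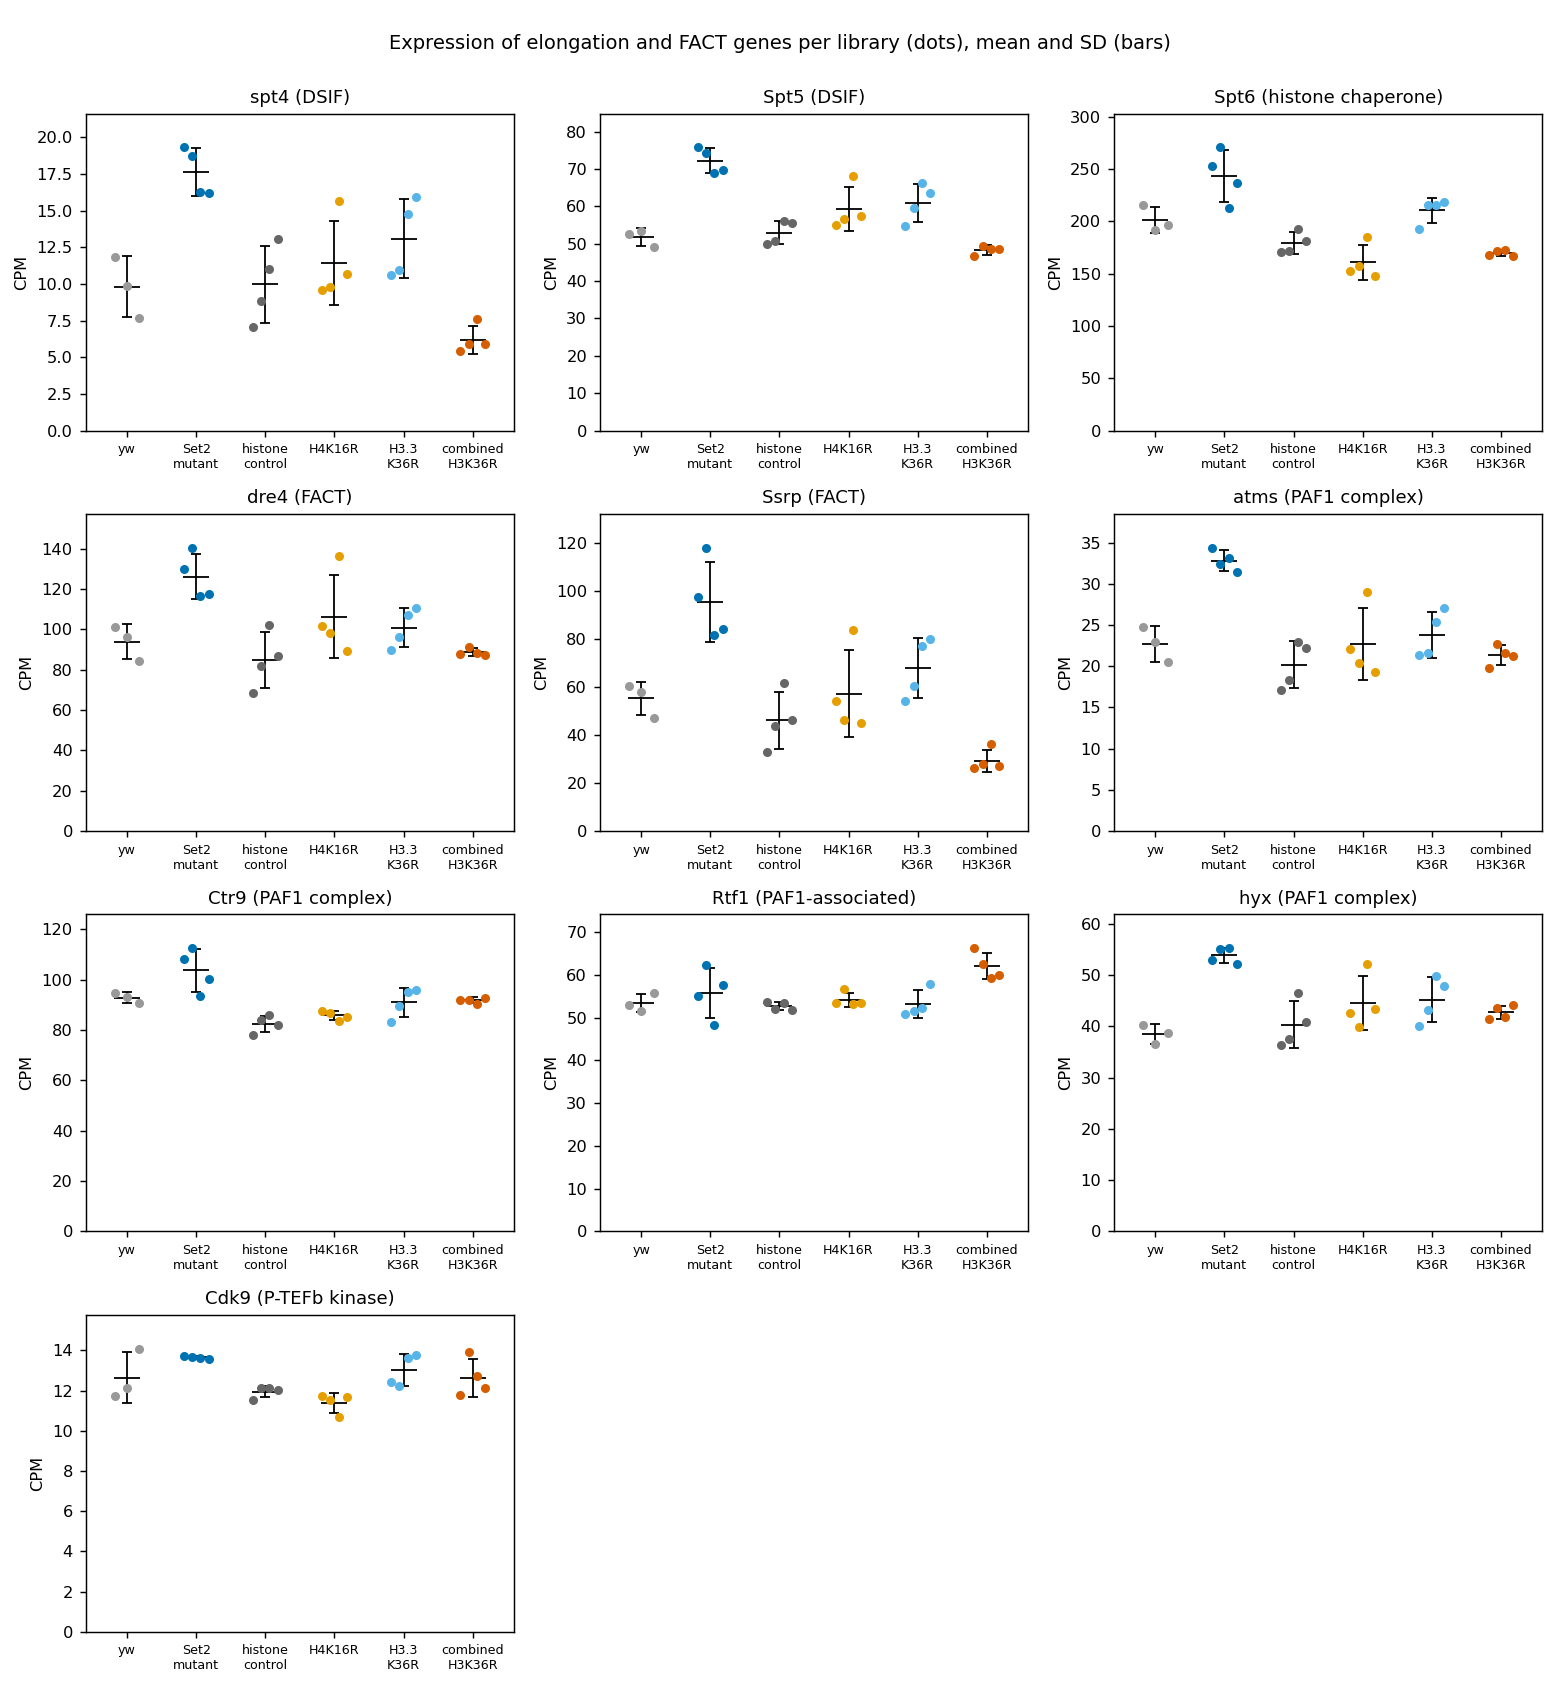
CPM of each of the 10 genes in every library (dots) with the group mean and SD (bars) for the 6 genotypes; each y axis starts at 0. Ssrp and spt4 have the widest range between genotypes, high in the Set2 mutant and low in combined H3K36R, while Rtf1 and Cdk9 vary least.

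Between the 2 control genotypes, none of the 10 was called in the histone control against yw, where 8.08% of all genes were (4% higher, 4.08% lower); DESeq2 also called 0, and Ctr9 alone had an unadjusted p under 0.05. Ctr9 was also the only one of the 10 whose libraries did not overlap between the controls, at 78.2 to 85.8 CPM in the histone control and 90.5 to 94.8 CPM in yw, and 22.4% of all genes had no overlap. The edgeR adjusted p of Ctr9 was 0.144. The share of all genes at an unadjusted p under 0.05 is not given for this comparison either.

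Per length, Spt6 transcript was the most abundant of the 10 in 5 of the 6 genotypes, at 29.0 ± 1.70 CPM per kb of exon in the histone control (SD, n = 4). It lay above 84.1% of all tested genes there. It was followed on this scale by dre4 (22.97 ± 3.77), spt4 (21.9 ± 5.73), Ctr9 (21.4 ± 0.845), Ssrp (18.4 ± 4.71), Rtf1 (16.7 ± 0.312), hyx (16.3 ± 1.83) and Spt5 (15.3 ± 0.913). Neighbours from Spt6 down to Spt5 overlapped between libraries, so the order of adjacent genes is not separated by the spread. Genes farther apart could be separate. Spt6 libraries (27.6 to 31.3 CPM per kb) all lay above those of Ctr9 (20.3 to 22.3), which all lay above those of Spt5 (14.4 to 16.2). atms, at 9.89 ± 1.41 CPM per kb, lay below every gene from Spt6 to Spt5 and above Cdk9, the lowest at 8.09 ± 0.183, with no overlap between neighbours. Cdk9 was last and atms ninth in all 6 genotypes. In H4K16R, dre4 came first at 28.8 ± 5.59 CPM per kb, ahead of Spt6 at 26.1 ± 2.72, and their libraries overlapped. In combined H3K36R, Ssrp (11.7 ± 1.86 CPM per kb) had moved to eighth place and spt4 (13.6 ± 2.07) to seventh.

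**Figure D2:**
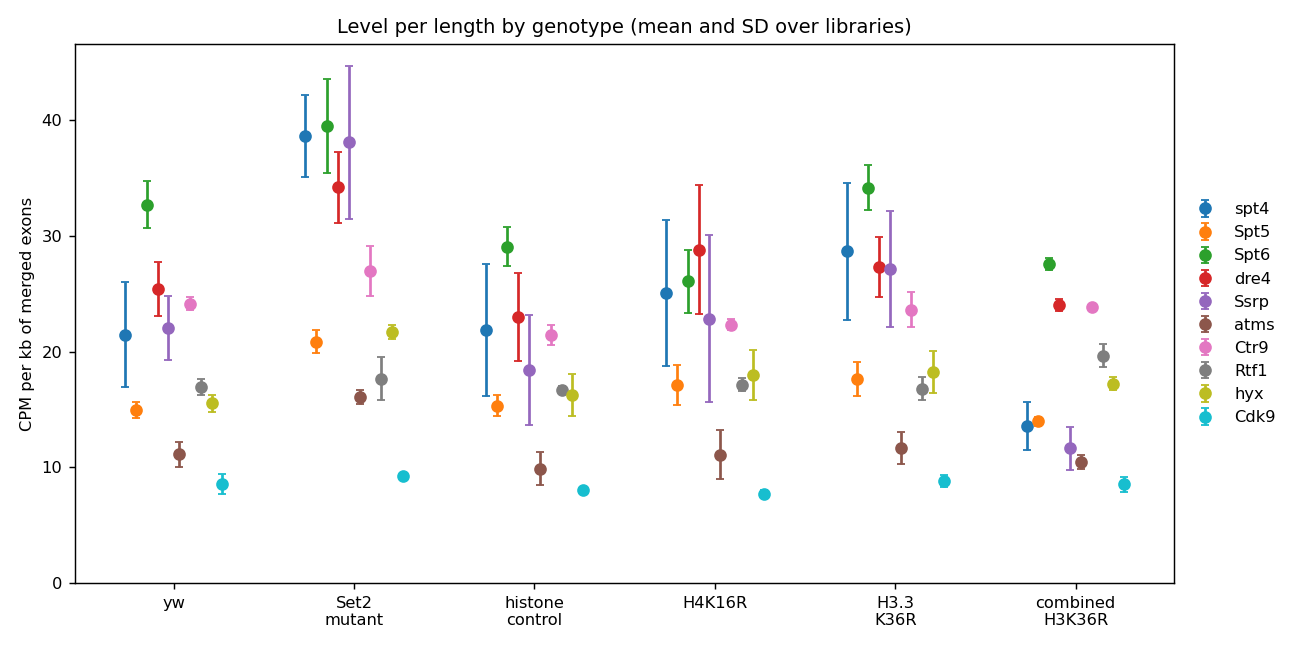
Level per length (CPM per kb of merged exons, mean and SD over 3 yw or 4 other libraries) of the 10 genes in each genotype. Spt6 is first in all genotypes except H4K16R, Cdk9 is last in all 6, and spt4 and Ssrp drop below hyx and Rtf1 in combined H3K36R.

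The DSIF genes lie on arm 2R, spt4 (FBgn0028683) at 12633589-12634172 and Spt5 (FBgn0040273) at 19437483-19441898 in the BDGP6.54 annotation. spt4 encodes the small zinc finger subunit, and its transcript has only 457 bp of exon. Levels of spt4 in yw were 11.9, 9.85 and 7.70 CPM, and in the Set2 mutant 19.3, 18.8, 16.3 and 16.2 CPM. Every Set2 mutant library was above every yw library, and the log2 fold change was 0.85 ± 0.21 (SE, adjusted p = 0.00313, edgeR). In the histone control spt4 spread widely, with 7.06, 8.81, 11 and 13.1 CPM. Combined H3K36R libraries had 5.43, 5.92, 7.58 and 5.87 CPM. The highest of them, replicate 3, overlapped the lowest control library, and the log2 fold change was -0.69 ± 0.19 (adjusted p = 0.00692). In H3.3K36R spt4 was at 10.6, 10.98, 14.8 and 15.96 CPM and in H4K16R at 9.59, 9.82, 15.7 and 10.7 CPM. Both sets overlapped the control, with log2 fold changes of 0.39 (adjusted p = 0.258) and 0.20 (adjusted p = 0.693).

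Spt5, the large DSIF subunit that P-TEFb phosphorylates, was much tighter within groups. It was at 52.7, 53.5 and 49.2 CPM in yw and at 75.7, 74.4, 68.97 and 69.6 CPM in the Set2 mutant. The groups were far apart, and the log2 fold change of 0.48 ± 0.08 had the smallest adjusted p of the 10 genes in that comparison (0.000133). In the histone control Spt5 was at 49.8, 50.7, 55.97 and 55.4 CPM, and in combined H3K36R at 46.6, 49.5, 48.6 and 48.6 CPM. All 4 mutant libraries lay just below all 4 controls, but the difference of -0.13 ± 0.08 was not called (adjusted p = 0.181). Libraries did not overlap for 3 of the 10 genes in this comparison, namely Spt5, Ctr9 and Rtf1, and for 42.6% of all genes. Spt5 was at 54.7 to 66.2 CPM in H3.3K36R and at 54.9 to 68.0 CPM in H4K16R, and neither was called (log2 fold changes 0.20 and 0.16).

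Spt6 (FBgn0028982, X, 6267797-6274984) encodes the histone chaperone that binds the polymerase and is the only X-linked gene of the 10. It was at 216, 192 and 197 CPM in yw and at 253, 271, 213 and 236 CPM in the Set2 mutant. The lowest mutant library lay below the highest yw library, and the log2 fold change of 0.27 ± 0.09 was the smallest of the 7 called (adjusted p = 0.0182). Without yw replicate 4 the adjusted p was 0.0659, and in a fit of only these groups 0.138. Histone control libraries had 170, 172, 193 and 181 CPM. Combined H3K36R was at 168, 172, 173 and 167 CPM, with 2 libraries inside that range and 2 just below it (log2 fold change -0.08, adjusted p = 0.513). H3.3K36R libraries had 193, 216, 216 and 218 CPM and H4K16R libraries 153, 157, 185 and 148 CPM. The H3.3K36R values all sat at the top of the control range or above it, and the H4K16R values mostly below it. Neither was called, with log2 fold changes of 0.23 (adjusted p = 0.140) and -0.15 (adjusted p = 0.395).

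FACT consists of the Spt16 protein, encoded by dre4 (FBgn0002183, 3L, 1871574-1876312), and the HMG-box protein encoded by Ssrp (FBgn0010278, 2R, 23806361-23809004). dre4 was at 101, 96.1 and 84.3 CPM in yw and at 130, 140, 117 and 117 CPM in the Set2 mutant, with no overlap (log2 fold change 0.43 ± 0.13, adjusted p = 0.0123). Ssrp was at 60.6, 57.8 and 47.3 CPM in yw and at 97.5, 118, 81.8 and 84.4 CPM in the Set2 mutant. These did not overlap either, and the log2 fold change was 0.79 ± 0.22 (adjusted p = 0.00664). So both FACT genes rose in the Set2 mutant, though the adjusted p of dre4 was 0.0724 without yw replicate 4. In combined H3K36R Ssrp was called and dre4 was not. dre4 stayed within the control spread, at 87.9, 91.4, 88.1 and 87.2 CPM against 68.5, 81.7, 102 and 86.7 CPM (log2 fold change 0.06 ± 0.12, adjusted p = 0.717). Ssrp fell to 26.1, 27.8, 36.1 and 26.9 CPM, against 32.9, 43.8, 61.6 and 46.4 CPM in the control (log2 fold change -0.66 ± 0.20, adjusted p = 0.0121). Combined H3K36R replicate 3 overlapped histone control replicate 1, and without histone control replicate 3, the highest control library for Ssrp, the adjusted p was 0.0587. In H3.3K36R Ssrp was at 54.3, 60.5, 77.3 and 79.9 CPM and in H4K16R at 54.0, 46.1, 83.9 and 45.1 CPM. The log2 fold change of Ssrp in H3.3K36R was 0.56 ± 0.20, the largest of the 10 there, and did not pass (adjusted p = 0.143).

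Ratios of partner transcripts within a library remove any scaling that both share. The log2 ratio of dre4 to Ssrp was 1.06, 0.90, 0.73 and 0.90 in the histone control and 1.75, 1.72, 1.29 and 1.70 in combined H3K36R. The groups did not overlap and differed by 0.72 (exact permutation test, two-sided, p = 0.0286, the smallest that 4 libraries against 4 can give). Over the 12 ratio tests made, the adjusted p was 0.114. In H3.3K36R the same ratio was lower than in the control, at 0.72, 0.67, 0.47 and 0.47 (difference -0.32, exact permutation p = 0.0286, adjusted p = 0.114). In the Set2 mutant it was 0.41, 0.25, 0.51 and 0.48 against 0.74, 0.73 and 0.83 in yw. These did not overlap, and the exact permutation p of 0.0571 is the smallest that 4 against 3 can give. The DSIF ratio, Spt5 to spt4, was 2.97 ± 0.20 in combined H3K36R and 2.44 ± 0.31 in the control (SD, n = 4 each, exact permutation p = 0.0571), and 2.04 ± 0.07 in the Set2 mutant against 2.42 ± 0.26 in yw. For P-TEFb, the log2 ratio of Cdk9 to CycT was -4.37 ± 0.05 in H4K16R and -4.16 ± 0.09 in the control (n = 4 each, exact permutation p = 0.0286, adjusted p = 0.114). None of the 12 ratio tests passed after adjustment. The Set2 mutant ratios could not have passed, since their smallest exact permutation p is 0.0571. The other ratios could have passed only if several of them reached 0.0286 together. The lack of a pass therefore does not show that the ratios were unchanged.

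**Figure D3:**
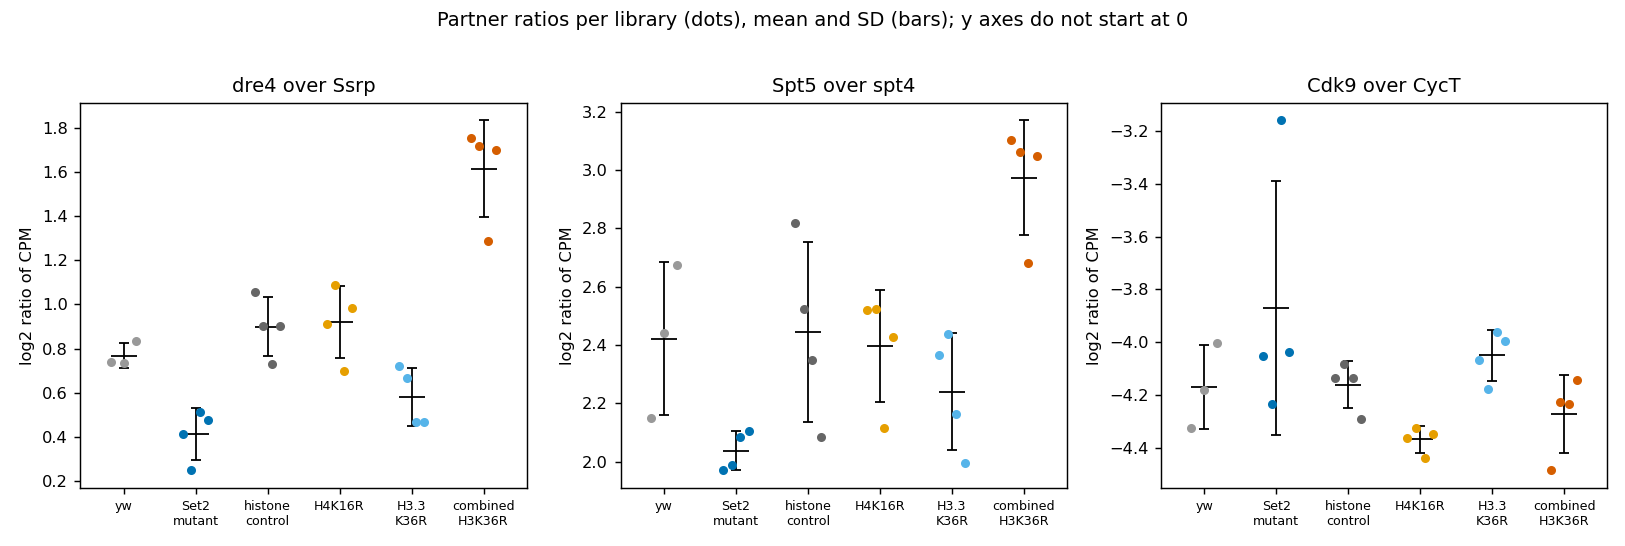
Log2 ratio of CPM of partner genes in every library (dots), with mean and SD (bars), for FACT (dre4 over Ssrp), DSIF (Spt5 over spt4) and P-TEFb (Cdk9 over CycT); the y axes do not start at 0. Combined H3K36R lies above the histone control for dre4 over Ssrp without overlap, and its replicate 3 is the lowest combined H3K36R library in the first and second panels.

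The PAF1 complex loads onto the elongating polymerase and promotes histone modification along genes. Its scaffold subunits are encoded by atms (Paf1; FBgn0010750, 3R, 4750035-4777490) and Ctr9 (FBgn0035205, 3L, 1307224-1311805), and hyx (FBgn0037657, 3R, 9038760-9042349) encodes the parafibromin homologue Cdc73. Of these, atms and hyx rose in the Set2 mutant. atms was at 24.7, 22.9 and 20.5 CPM in yw and at 34.4, 32.4, 33.1 and 31.4 CPM in the mutant (log2 fold change 0.53 ± 0.13, adjusted p = 0.00249). hyx was at 40.3, 36.5 and 38.6 CPM in yw and at 53.0, 55.01, 55.2 and 52.2 CPM in the mutant (log2 fold change 0.48 ± 0.10, adjusted p = 0.000574). Neither gene overlapped between these groups. Exons of atms overlap other annotated features over 241 bp (11.8%), nearly all of it CG44098 on the opposite strand, with a median count of 9168 against 3186 for atms. Whether counting used strand is unknown from the sources used here, and reads of that stretch cannot be assigned. Ctr9, at 90.5 to 94.8 CPM in yw and 93.5 to 112 CPM in the mutant, did not pass (log2 fold change 0.16 ± 0.07, adjusted p = 0.0642). It passed without Set2 mutant replicate 3 (0.0117) or replicate 4 (0.0242) and with a length trend removed (0.000653). Its exons overlap Nt5a and sturkopf over 233 bp (6.06%).

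In combined H3K36R none of these 3 PAF1 genes was called. Ctr9 was at 92.1, 91.9, 90.1 and 92.8 CPM, above every control library at 78.2, 83.8, 85.8 and 81.9 CPM. The difference was small, a log2 fold change of 0.15 ± 0.06, and its adjusted p was 0.0594; it passed with DESeq2 (0.0137), with RLE scaling (0.0260) and in 3 other alternatives. atms, at 19.7 to 22.7 CPM against 17.1 to 22.96, and hyx, at 41.3 to 44.1 CPM against 36.3 to 46.5, lay within the control range. In H3.3K36R atms was at 21.4 to 27.0 CPM, Ctr9 at 83.3 to 95.7 and hyx at 40.0 to 49.7, and in H4K16R they were at 19.3 to 29.0, 83.7 to 87.6 and 40.0 to 52.2 CPM. All of these groups overlapped the control.

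Rtf1 (FBgn0034722, 2R, 22375090-22378484), whose product acts with the PAF1 complex in promoting H2B ubiquitination, was not called in the Set2 mutant and was called higher in combined H3K36R. It was at 52.9, 51.7 and 55.9 CPM in yw and at 55.03, 62.3, 48.2 and 57.6 CPM in the Set2 mutant, where the mutant spread enclosed yw (log2 fold change 0.06 ± 0.08, adjusted p = 0.558). In the histone control it was at 53.7, 52.0, 53.4 and 51.7 CPM, and in combined H3K36R at 66.2, 62.7, 59.4 and 60.0 CPM. All 4 combined libraries were above all 4 controls, and Rtf1 rose by a log2 fold change of 0.24 ± 0.07 (adjusted p = 0.0116). It was the only one of the 10 whose highest genotype mean was not in the Set2 mutant. In H3.3K36R it was at 50.9 to 58.0 CPM and in H4K16R at 53.2 to 56.7 CPM, overlapping the control. Its exons overlap lncRNA:CR45327 over 222 bp (7.02%), a gene with a median count of 11.

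Cdk9 (FBgn0019949, 2R, 22636063-22637727), the kinase of P-TEFb, was called in none of the 7 comparisons between genotypes. It was at 11.7, 12.1 and 14.1 CPM in yw and at 13.7, 13.7, 13.6 and 13.6 CPM in the Set2 mutant (log2 fold change 0.11 ± 0.08, adjusted p = 0.294, 95% interval -0.06 to 0.28). In the histone control it was at 11.6, 12.1, 12.1 and 12.01 CPM and in combined H3K36R at 11.8, 13.9, 12.7 and 12.1 CPM (log2 fold change 0.08, 95% interval -0.08 to 0.24). In H3.3K36R, at 12.4, 12.2, 13.6 and 13.8 CPM, every library was above every control library, the only such case among the 10 genes there, against 11% of all genes; the log2 fold change was 0.12 (adjusted p = 0.373). In H4K16R it was at 11.7, 11.5, 10.7 and 11.7 CPM, below every combined H3K36R library. That difference of 0.15 ± 0.08 was not called (adjusted p = 0.124) but passed with DESeq2 (0.0186) and with RLE scaling (0.0314).

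**Figure D4:**
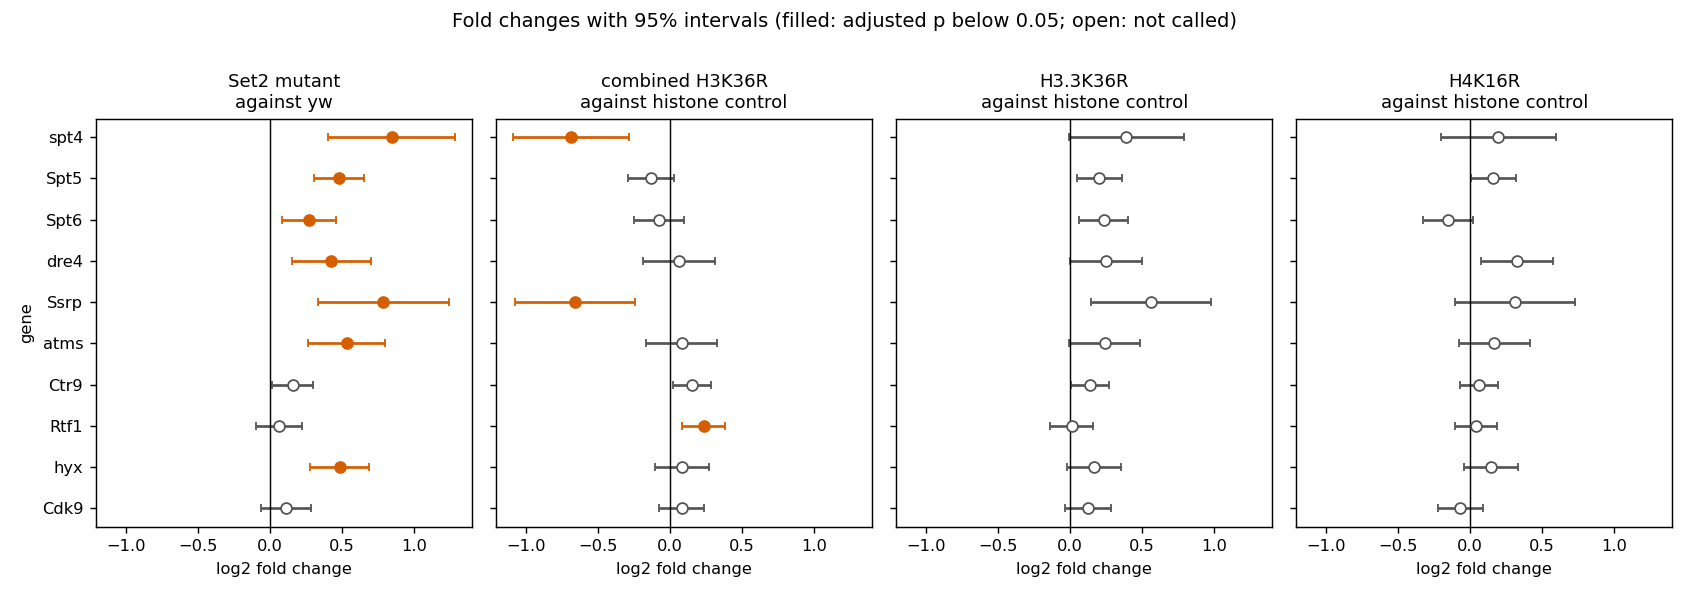
Log2 fold changes (points) with 95% intervals (lines) of the 10 genes in 4 comparisons; filled points have an adjusted p below 0.05. In the Set2 mutant 7 genes are filled and to the right of 0, in combined H3K36R spt4 and Ssrp are filled to the left and Rtf1 to the right, and none is filled in H3.3K36R or H4K16R.

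Because the Set2 mutant and combined H3K36R comparisons share no library, the difference of their effects was tested directly. It was called for 6 of the 10 genes, all with the larger value in the Set2 mutant, against 51.5% of all genes called, 27.9% in that direction and 23.6% in the other. The difference in log2 fold change was 1.53 ± 0.29 for spt4 (adjusted p = 0.000140), 1.45 ± 0.30 for Ssrp (adjusted p = 0.000381) and 0.61 ± 0.11 for Spt5 (adjusted p = 0.000112). It was 0.45 ± 0.18 for atms, 0.40 ± 0.13 for hyx and 0.35 ± 0.12 for Spt6. The atms difference was lost without yw replicate 4, histone control replicate 3 or 4, or combined H3K36R replicate 1 (adjusted p = 0.0578 to 0.103), with the length trend removed (0.0932) and with the covariate (0.685). For dre4 it was 0.36 ± 0.18 and did not pass (adjusted p = 0.0962; 0.0333 without histone control replicate 1), and Rtf1, Ctr9 and Cdk9 were at -0.17, 0.01 and 0.03. Stock background differs between these comparisons along with the mutation. Across the 6 genotype means, Ssrp covered a range of 1.70 and spt4 of 1.51 on the log2 scale, where the median gene covered 1.15. The other 8 genes covered 0.23 (Rtf1) to 0.71 (atms).

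Combined H3K36R was also set against the other histone mutants. Against H3.3K36R, which carries the same H3.3 change with the HWT H3.2 label, Ssrp was lower at a log2 fold change of -1.22 ± 0.20 (2.33-fold, adjusted p = 3.95e-05) and spt4 at -1.08 ± 0.19 (2.11-fold, adjusted p = 9.03e-05). Spt5 (-0.34 ± 0.08, adjusted p = 0.000879) and Spt6 (-0.31 ± 0.08, adjusted p = 0.00375) were lower as well, and Rtf1 was higher (0.22 ± 0.07, adjusted p = 0.0133). In these 5 genes no library of one genotype overlapped the other. Thus 4 of 10 were lower and 1 higher, where 47.7% of all genes were called, 28% lower and 19.7% higher, and 49.7% had no overlap. Against H4K16R, Ssrp (-0.97 ± 0.20), spt4 (-0.88 ± 0.19) and Spt5 (-0.29 ± 0.08) were lower and Rtf1 was higher (0.20 ± 0.07, adjusted p = 0.0300), with 45.2% of all genes called, 26.8% lower and 18.3% higher. Libraries of 6 of the 10 did not overlap there, against 44.5% of all genes. Rtf1 is the least settled of these, since its adjusted p against H4K16R was 0.0595 to 0.103 when H4K16R replicate 1 or 4, combined H3K36R replicate 1 or 2, or the 4 libraries that stand apart were left out. Against H3.3K36R it was 0.0529 without combined H3K36R replicate 1. Both contrasts contain the same combined H3K36R libraries.

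With the library score on that principal component added as a covariate, the count in the Set2 mutant was 2 (Spt5 and hyx) instead of 7, the difference of effects was called for 3 genes (spt4, Ssrp and Spt5) instead of 6, and combined H3K36R had 5 (with Ctr9 and hyx) instead of 3; the score itself separates the Set2 mutant from yw, so the covariate and the mutation cannot be told apart. Leaving out the 4 libraries that stand apart, a choice made after seeing the data, left the counts at 7 and 3 but gave 6 calls in H3.3K36R against the control (Spt5, Spt6, dre4, Ssrp, atms and hyx), where log2 fold changes were 0.24 to 0.79 and 2821 of all genes were called, 1825 of them higher; this choice removes the highest control and the lowest H3.3K36R library on the component and so widens that difference by construction.

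Other genes of the elongation machinery were read in the same way, 34 genes in 8 lists apart from Set2 itself. In the Set2 mutant 16 of the 34 were higher and 1 was lower, at a median log2 fold change of 0.27, where 23.4% of all genes were higher and 21.1% lower. With the principal component as a covariate 5 of the 34 were higher and none lower, where 1403 of all 14365 tested genes were higher and 1854 lower. Of the histone chaperones other than Spt6 and FACT, 7 of 8 were higher, with a median of 0.58. The highest were Caf1-55 (0.98 ± 0.22, adjusted p = 0.00138), a WD40 histone-binding protein shared by several chromatin complexes, asf1 (0.95 ± 0.20), an H3-H4 chaperone, and Caf1-105 (0.77 ± 0.22), a subunit of the replication-coupled assembly factor CAF-1. With the covariate the chaperone calls on Hira, yem, Caf1-180 and Caf1-105 were lost, Caf1-105 at 0.32 (adjusted p = 0.201). Those on Hira, yem and Caf1-180 were also lost without yw replicate 4 (adjusted p = 0.056 to 0.095). The exception among the 34 was lilli, the scaffold of the super elongation complex, at -0.42 ± 0.12. With the length trend removed its log2 fold change was 0.00 (adjusted p = 0.957), and its call was also lost with the covariate and in a fit of only these groups. Of the NELF genes 2 of 4 were higher, of the tail kinases and phosphatases 3 of 4, of the Elongin and TFIIS list 2 of 5, and of the list of CycT and 7SK proteins 1 of 4, Larp7, while CycT, the cyclin of P-TEFb, was not called (-0.13, adjusted p = 0.522).

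In combined H3K36R 6 of the 34 were higher and 8 lower, shares close to those of all genes, 16.4% and 22.8%. The lowest were chaperones of nucleosome assembly, Caf1-180 (-1.14 ± 0.20, 2.20-fold), Caf1-105 (-0.97 ± 0.20, 1.95-fold) and asf1 (-0.67 ± 0.18, 1.60-fold). In all, 4 of the 8 chaperones were lower and 1 was higher. The highest were fs(1)h, the BET bromodomain protein (0.43 ± 0.15), Hexim, the inhibitor of P-TEFb (0.36 ± 0.10), and the pausing subunit Nelf-A (0.32 ± 0.08). The call on fs(1)h was lost in 6 of the alternatives, among them without histone control replicate 1 (adjusted p = 0.0557). Against H3.3K36R, 13 were lower, led by Caf1-180 (-1.62 ± 0.20), Caf1-105 (-1.36 ± 0.20) and asf1 (-1.18 ± 0.18), and 6 were higher, led by lilli (0.36), Hexim (0.32) and the super elongation complex partner Eaf (0.29), where 28% of all genes were lower and 19.7% higher. lilli was at 0.10 with the length trend removed (adjusted p = 0.0930) and was not called with the covariate (0.0686), and Eaf was not called without combined H3K36R replicate 1 (0.0503) or 2 (0.0622). Against H4K16R, 10 were lower, led by Caf1-105 (-1.29), Caf1-180 (-1.11) and asf1 (-1.07), and 4 were higher besides Set2 (0.35), led by fs(1)h (0.50) and CG9915 (0.30). Of all genes 26.8% were lower there and 18.3% higher. With the length trend removed Set2 was at 0.17 and was not called (edgeR adjusted p = 0.335).

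The difference between the Set2 mutant and combined H3K36R effects was higher for 17 of the 34 and lower for 6, where 27.9% and 23.6% of all genes were. With the covariate these counts were 8 and 4, and with the length trend removed 17 and 1. The shares of all genes in each direction under these settings are not given here. It reached 1.74 ± 0.30 for Caf1-105, 1.73 ± 0.29 for Caf1-180 and 1.62 ± 0.27 for asf1, above the 1.53 of spt4 and the 1.45 of Ssrp. On the other side were lilli (-0.71 ± 0.17), fs(1)h (-0.59 ± 0.23) and Hexim (-0.54 ± 0.15), and the Hexim call held in every alternative. With a trend on gene length removed from each library, the lilli difference shrank to -0.09 (adjusted p = 0.299) and that of fs(1)h changed sign to 0.14 (adjusted p = 0.296). The fs(1)h call was lost in 10 other alternatives as well, at adjusted p of 0.0514 to 0.0969. H3.3K36R against the control had a call for EloB, an Elongin subunit (0.37 ± 0.09, adjusted p = 0.0362), and for no other of the 34, and H4K16R had none. The call on EloB was lost in 8 alternatives. In H3.3K36R, of 17 alternatives 7 called Larp7 higher, 5 Hira and 2 asf1, and leaving out the 4 libraries that stand apart called 12 of the 34 beside EloB. In H4K16R, CG9915 was called lower in 8 of 17 alternatives and Hira in 4, and the covariate alone called EloB, CycK and Caf1-55 higher. Between the controls 3 genes were lower in the histone control than in yw, the Elongin subunit genes EloC (-0.54 ± 0.14) and EloB (-0.33 ± 0.10) and the PAF1 subunit gene Atu (-0.43 ± 0.13). These calls were lost in 4 alternatives for EloC and in 10 each for EloB and Atu.

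**Figure D5:**
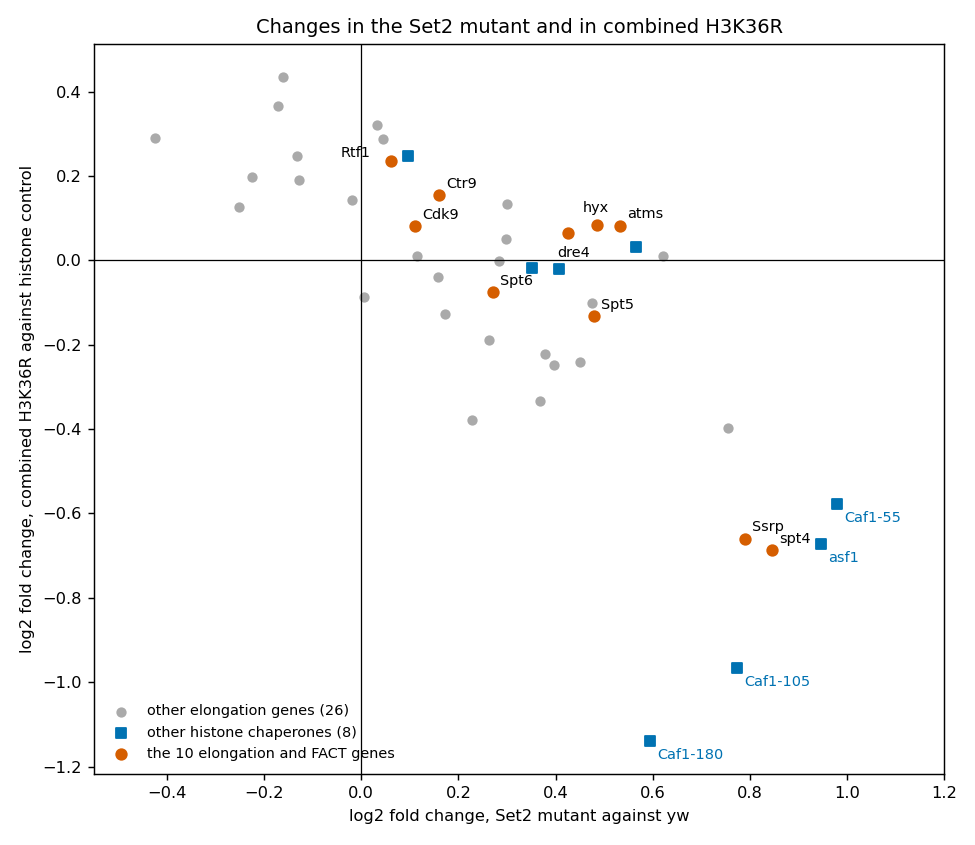
Log2 fold change in the Set2 mutant against yw (x axis) and in combined H3K36R against the histone control (y axis) for the 10 elongation and FACT genes (orange), 8 other histone chaperones (blue squares) and 26 other elongation genes (grey); the comparisons share no library. spt4 and Ssrp lie at lower right beside asf1, Caf1-55, Caf1-105 and Caf1-180, apart from the other 8 of the 10 genes.

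For each gene, the tested genes with the most similar pattern over the 6 genotype means were found by the root mean square difference of centred log2 CPM. For spt4 these were mbf1 (0.04), CG7483 (0.04) and snoRNA:Me18S-C419 (0.05), and for Ssrp they were Skp2 (0.04), Nup358 (0.04) and GstD1 (0.04). Ssrp was the nearest of the 10 genes to spt4, at 0.10 and rank 125 among all tested genes. For Spt5 they were ck, cib and Cog4, for Spt6 cerv, Upf1 and Ulp1, and for dre4 vers, CG6695 and Fip1. Nap1, a histone chaperone gene, was the closest to hyx (0.03). None of the 10 had another of the 10 among its 3 closest, and the nearest such pair by rank was Cdk9 with Ctr9, at 0.05 and rank 20. With 10 genes among 14365 tested, another of the 10 was unlikely to be among the 3 closest in any case. Whether the 10 were more alike than other genes was not tested.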

How the data were processed

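The authors deposited read counts per gene for 23 libraries, whole numbers for 17606 FlyBase identifiers. Per the labels' protocols, the kit was Nugen Ovation Universal Drosophila for total RNA, with paired 100 bp reads, and STAR 2.7.2a and Subread 2.0.3 are named in the submitters' processing notes. The sources used here do not give the genome build, annotation, strand setting or treatment of multi-mapping reads. Of counts from 5 to below 20, 62.1% were even, against 49.91% of counts from 1000 up, so what 1 count stands for is uncertain at low values. Replicate 1 of yw was dropped by the submitters for a library construction error. Nothing in the labels says that replicates came from separate crosses, so p-values measure the spread between these samples, which may in part be technical.

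Names, positions and exon lengths came from the BDGP6.54 annotation by identifier (17527 of 17606 matched, 99.55%), which need not be the authors' build. Genes were filtered with filterByExpr at a minimum count of 10 (3241 removed), scaled by TMM and fitted in edgeR 4.0.16 (R 4.3.3) with 1 mean per group over all 23 libraries, with 17 residual degrees of freedom and a common biological coefficient of variation of 0.311. The quasi-likelihood test was two-sided, with Benjamini-Hochberg adjustment across all 14365 genes in each of the 7 comparisons and in the difference of effects. Called means an adjusted p below 0.05. Log2 fold changes are given with the SE, and CPM with the SD. The script was run on simulated counts for the Set2 mutant comparison alone, with the same spread for all genes. That run checks the code and not how the test behaves at the spread of these data. Partner ratios had exact permutation tests adjusted over 12. Overlap means that the ranges of the libraries of the groups meet.

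The genes, lists and tests were chosen with earlier results of these data known. All 10 genes are named in every comparison. Of the pathway lists, up to 3 called genes per direction with the largest log2 fold change are named. Markers and the Set2 and His3.3A checks came from fixed lists, in which nos was not matched and not analysed here. CG9915 was on the Elongin list and is given no role, because the annotation names none. Alternatives were RLE scaling, TMM from autosomal genes, no filter, DESeq2 1.42.0, fits of only the groups compared, a replicate block, removal of a length trend, the first principal component of the within-group residuals of the histone genotypes as a covariate, and leaving out each library. No gene or promoter sequence was used here.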

Additional observations from a re-analysis of the deposited data

Results flagged for a closer look

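In 5 of the 65 groups of 4 libraries tested, a library lay farther from the others than Dixon's 95% limit; chance gives about 1 in 20. Combined H3K36R replicate 3 accounted for 3 of them. Its Ssrp level was 36.1 CPM, where the others were at 26.1 to 27.8, its log2 ratio of dre4 to Ssrp was 1.29, where the others were at 1.70 to 1.75, and its log2 ratio of Spt5 to spt4 was 2.68, where the others were at 3.05 to 3.10. The same library scored -9.41 on the first principal component of within-group residuals, where the others scored -55.2 to -46.2. H3.3K36R replicate 1 had Spt6 at 192.8 CPM against 216 to 218 in the others. It was the lowest of its group for 9 of the 10 genes. H4K16R replicate 2 had Rtf1 at 56.7 CPM against 53.2 to 53.5 in the others. H4K16R replicate 3 and histone control replicate 3, though not past the limit for any gene, were each the highest of their group for 7 of the 10 genes. Such runs were not particular to these libraries. Histone control replicate 1 was the lowest of its group for 9 of the 10, H3.3K36R replicate 4 the highest for 8 and yw replicate 2 the highest for 7. The shares over all genes are not given here.

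The effect of the Set2 mutant and that of combined H3K36R differed by a direct test for 6 genes. On the log2 scale the difference was 1.53 for spt4, 1.45 for Ssrp, 0.61 for Spt5, 0.45 for atms, 0.40 for hyx and 0.35 for Spt6. For spt4 and Ssrp the effects were called in opposite directions, while for the other 4 the combined H3K36R effect was not called. With that component as a covariate, spt4, Ssrp and Spt5 were still past the threshold and atms, hyx and Spt6 were not.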

How the results depend on the processing

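Of 25 called results on the 10 genes, 14 kept their call in every alternative run, 11 lost it in at least 1, and none changed sign; of 55 that were not called, 15 were called in some alternative and 21 changed sign, at values of -0.16 to 0.16 with adjusted p of at least 0.119. Most losses came with the principal component as a covariate, where the number of the 10 genes called became 2 in the Set2 mutant (from 7), 5 in combined H3K36R (from 3), 1 in H4K16R (dre4) and 3 in the difference of effects (from 6). In the Set2 mutant, Spt6 (adjusted p = 0.0659) and dre4 (0.0724) were lost without yw replicate 4, and Spt6 (0.138) in a fit of only the groups compared; Ctr9 passed there with the length trend removed (0.000653) and in combined H3K36R with DESeq2 (0.0137). Leaving out single libraries gave 5 to 8 calls in the Set2 mutant, 2 to 3 in combined H3K36R, 4 to 5 against H3.3K36R, 3 to 5 against H4K16R and 5 to 7 in the difference. Leaving out the 4 libraries that stand apart gave 6 calls in H3.3K36R. With the length trend removed, lilli in the Set2 mutant went from -0.42 to 0.00 (0.0045) and the fs(1)h difference of effects from -0.59 to 0.14. The cause of these changes was not tested.

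Counts over all genes moved by over 1.5 times as follows. In H4K16R the count of 188 became 399 with autosomal TMM, 647 with DESeq2, 11 with only the groups compared, 311 with the length trend removed and 622 with the covariate, and was 71 to 479 when a library was left out. In H3.3K36R the count of 282 became 721 with DESeq2 and 2821 without the 4 libraries, and was 156 to 464 when 1 was left out. In the Set2 mutant 6399 became 3257 with the covariate. Between the controls 1161 became 1879 with the covariate and 1892 without the 4 libraries, and was 680 to 1079 when 1 was left out. The cause was not tested.

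Replicate numbers were not taken to pair the samples, since correlations of deviations of same-numbered libraries ran from -0.04 to 0.43 and not all exceeded 0.1. Among the histone genotypes, numbers 1 and 3 had correlations of 0.13 to 0.43 and matched their own number best in each of the 5 comparisons, and numbers 2 and 4 did not throughout, which is a hint from the data and not from the design. With the replicate number as a block, the 10 genes had the same number of calls as without it in all 7 comparisons and in the difference of effects (7 in the Set2 mutant, 3 in combined H3K36R, 0 in H3.3K36R), and the count over all genes in H3.3K36R became 854.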
